A study of Mus musculus with 16 samples.

Results

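The metallothioneins Mt1, Mt2 and Mt3 were measured in single cells of the mouse cortex, as 3 of the 30389 genes with a count in the series. The members were the rows with these symbols, read in cell barcodes with 200 to 7000 detected genes. Their level was expressed as CPM, the molecules of a gene per 1000000 molecules summed over a library or over the cells of 1 class in a library. Mt4, the remaining gene of the mouse cluster, had no row.

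Metallothioneins are small cysteine-rich proteins that hold zinc and copper ions and that also bind cadmium and scavenge reactive oxygen species. Mt1 and Mt2 are made in most tissues and are induced by metals, through the zinc sensor Mtf1 and its metal response elements, and by glucocorticoids and oxidative stress. Mt3 is found mainly in the nervous system and was first described as a growth inhibitory factor of brain tissue.

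The libraries came from the neocortex of mice aged 17 months, dissociated fresh and captured by Drop-seq, with each library taken as 1 mouse from the animal numbers in the titles. In Drop-seq, droplets hold a cell and a barcoded bead, and each captured transcript is counted once by its unique molecular identifier (UMI). THY-Tau22 mice, heterozygous for a human 4-repeat tau transgene with the G272V and P301S mutations under the neuronal Thy1.2 promoter, were compared with WT littermates that lack it, all from crosses to C57Bl6/J. The labels gave 4 WT male, 4 THY-Tau22 male, 3 WT female and 5 THY-Tau22 female libraries. All carriers came from a single transgenic line, and the transgene is driven in neurons, which gave few of the captured cells.

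The 16 tables held 48000 barcodes and 25145717 UMIs, 1041675 to 2237505 per table, of which 28530 barcodes were kept as cells, with a median of 429 to 736.5 UMIs per cell in a library. Among these, 2952 of the 3000 barcodes (98.4%) of THY-Tau22 male replicate 4 were also found in WT male replicate 3, where the other pairs of tables shared 3 to 12, so both genotypes held the same library. Both tables were left out of the results here unless stated, which left 14 libraries, of which 3 were from males and 3 from females without the transgene and 3 from males and 5 from females with it. THY-Tau22 female replicate 5 and WT female replicate 3 carried another tag (MB22) in their titles than the other 14 tables (MB21), and the labels do not say what it marks. In the titles, 1 animal number occurs on 2 libraries, WT male replicate 1 and the first of the THY-Tau22 females, which differ in sex and genotype, and these were taken as separate mice.

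The 3 genes lie on the plus strand of mouse chromosome 8 and have 3 exons each (mm10, GENCODE vM21). Mt3 is at chr8:94152607-94154146, Mt2 at chr8:94172664-94173568 and Mt1 at chr8:94179082-94180327. The gap was 18517 bp between Mt3 and Mt2 and 5513 bp between Mt2 and Mt1. The antisense gene Gm45774 overlaps Mt2 and had no row in the tables, and 180 of the 452 windows of 60 bases in the Mt2 transcript (39.8%), the length of the sequenced read, also occur in it. No window of 60 bases was shared between the 3 members, and none of Mt1 or Mt3 occurred in another gene. Whether the counting used the strand was not given in the sources used here, so Mt2 counts may hold reads of its antisense partner, while reads of the 3 members were separable.

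The coding sequences are shown to let the likeness of the 3 members be read base by base, although the reads were counted at the 3′ end. Capitals mark the bases of Mt1 that differ from Mt2, the bases of Mt2 that differ from Mt1, and the bases of Mt3 that differ from Mt1 or have no partner in it (GENCODE vM21 transcripts).
Mt1: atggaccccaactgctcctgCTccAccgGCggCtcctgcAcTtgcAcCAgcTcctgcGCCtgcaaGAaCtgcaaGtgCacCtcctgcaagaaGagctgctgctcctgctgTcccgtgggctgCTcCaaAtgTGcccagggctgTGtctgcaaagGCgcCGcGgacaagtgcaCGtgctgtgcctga
Mt2: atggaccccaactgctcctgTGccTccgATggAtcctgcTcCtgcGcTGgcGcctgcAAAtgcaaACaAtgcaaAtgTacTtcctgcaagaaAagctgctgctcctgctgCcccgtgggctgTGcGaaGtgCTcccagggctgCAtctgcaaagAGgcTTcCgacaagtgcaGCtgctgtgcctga
Mt3: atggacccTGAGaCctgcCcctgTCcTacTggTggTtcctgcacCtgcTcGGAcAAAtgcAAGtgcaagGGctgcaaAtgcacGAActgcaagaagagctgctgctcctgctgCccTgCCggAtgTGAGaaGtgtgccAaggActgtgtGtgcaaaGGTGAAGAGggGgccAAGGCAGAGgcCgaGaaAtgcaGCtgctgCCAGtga
Mt1 and Mt2 were 186 bases long and Mt3 207. Mt1 and Mt2 were identical at 79.6% of 186 aligned positions, Mt1 and Mt3 at 66.2% of 207, and Mt2 and Mt3 at 67.6%. The longest identical run was 20 bases between Mt1 and Mt2 and 27 between Mt1 and Mt3.

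Windows of 240 bases upstream of each gene are shown because Mt1, Mt2 and Mt3 varied together between libraries. Capitals mark the core of the metal response element, searched as TGCACNC and TGCGCNC on both strands (RefSeq, GRCm38.p6, plus strand, 5′ to 3′).
Mt1, chr8:94178839-94179078: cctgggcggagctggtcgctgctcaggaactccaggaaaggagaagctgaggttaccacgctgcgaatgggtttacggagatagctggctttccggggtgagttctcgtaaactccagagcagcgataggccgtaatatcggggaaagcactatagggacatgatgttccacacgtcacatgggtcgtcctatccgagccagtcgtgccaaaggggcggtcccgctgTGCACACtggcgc
Mt2, chr8:94172368-94172607: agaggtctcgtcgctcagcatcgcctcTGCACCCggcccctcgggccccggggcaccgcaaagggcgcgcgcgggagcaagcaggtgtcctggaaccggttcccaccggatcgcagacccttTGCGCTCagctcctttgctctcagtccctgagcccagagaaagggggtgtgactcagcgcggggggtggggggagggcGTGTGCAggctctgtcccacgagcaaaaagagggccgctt
Mt3, chr8:94152357-94152596: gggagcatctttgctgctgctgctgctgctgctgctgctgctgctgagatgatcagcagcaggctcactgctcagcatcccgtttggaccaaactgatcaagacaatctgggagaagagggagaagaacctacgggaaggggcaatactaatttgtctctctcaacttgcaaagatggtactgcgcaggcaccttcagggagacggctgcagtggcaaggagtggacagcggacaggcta
The window of Mt1 held 1 core, that of Mt2 held 3 and that of Mt3 held 0. Of 32851 windows of the same length and place, 20.4% held at least 1 core and 1.18% at least 3. The windows end 10 bases before the RefSeq start sites, which is 3 bases before the GENCODE start given above for Mt1, 56 for Mt2 and 10 for Mt3. The bases between, and all bases downstream of these starts, were not searched. The counts are therefore of these windows and not of the whole promoter of a gene. A match is a description of the letters and not a measured site.

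Astrocyte-like cells carried most of the metallothionein transcripts. Cell classes were rebuilt by clustering without Mt1, Mt2 and Mt3 and named from marker genes, and the largest cluster of the astrocyte-like class was led by the glutamate transporter Slc1a2, the water channel Aqp4, the connexin Gja1 and the aldolase Aldoc. The whole class held 5602 of the 28530 cells, against 8041 microglia-like, 5354 oligodendrocyte-like, 4172 endothelial-like, 1454 neuron-like, 1320 OPC-like (oligodendrocyte precursor), 944 mural-like, 260 macrophage-like, 199 fibroblast-like and 137 ependymal-like cells, and 1047 cells stayed unnamed. In the 14 libraries astrocyte-like cells gave 19.4% of the cells and 17.8% of the UMIs. They gave 62.3% of the Mt1 UMIs, 67.6% of the Mt2 UMIs and 79.5% of the Mt3 UMIs.

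The mean level of Mt1 in astrocyte-like cells was 3090 CPM ± 1803 (SD, n = 14 libraries), with a range of 1091 to 7648. The mean level of Mt2 was 1225 CPM ± 640 and that of Mt3 2059 CPM ± 985. For each of the 3 genes the astrocyte-like level lay above that of barcodes with under 200 genes in 14 of 14 libraries. Those barcodes, which may hold RNA from outside cells as well as cells of low RNA content, stood at a mean of 793 CPM for Mt1, 288 CPM for Mt2 and 489 CPM for Mt3. Ependymal-like cells, the ciliated cells that line the ventricles, were measured in 4 libraries. Their mean levels were 2343 CPM ± 870 for Mt1, 1310 CPM ± 795 for Mt2 and 2445 CPM ± 718 for Mt3. Mt1 was higher in astrocyte-like than in ependymal-like cells in 4 of these 4 libraries, Mt3 was lower in 4 of 4, and Mt2 was lower in 2 of 4.

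The order below these classes differed between the members. Mt1 stood at a mean of 1095 CPM in macrophage-like cells (12 libraries), 885 CPM in fibroblast-like cells (7 libraries) and 452 CPM in endothelial-like cells. It stood at 353 CPM in microglia-like, 334 in oligodendrocyte-like, 314 in mural-like and 280 in OPC-like cells, neighbours whose order reversed in 6 or more of 14 libraries. Neuron-like cells were lowest, at 134 CPM, below OPC-like cells in 12 of 14 libraries. Below astrocyte-like and ependymal-like cells, Mt2 stood at 476 CPM in fibroblast-like, 229 in endothelial-like, 151 in macrophage-like and 141 in mural-like cells. Its lowest level was 45.7 CPM in microglia-like cells, next to 51.3 in neuron-like and 67.1 in oligodendrocyte-like cells. Mt3 stood at 2059 CPM in astrocyte-like and 234 CPM in OPC-like cells, a ratio of 8.82 with no overlap between the libraries' ranges, and at 133 CPM in neuron-like cells. It was under 100 CPM on average in the microglia-like, oligodendrocyte-like, vascular and macrophage-like classes. All neighbouring ranges other than that gap for Mt3 overlapped.

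**Figure D1:**
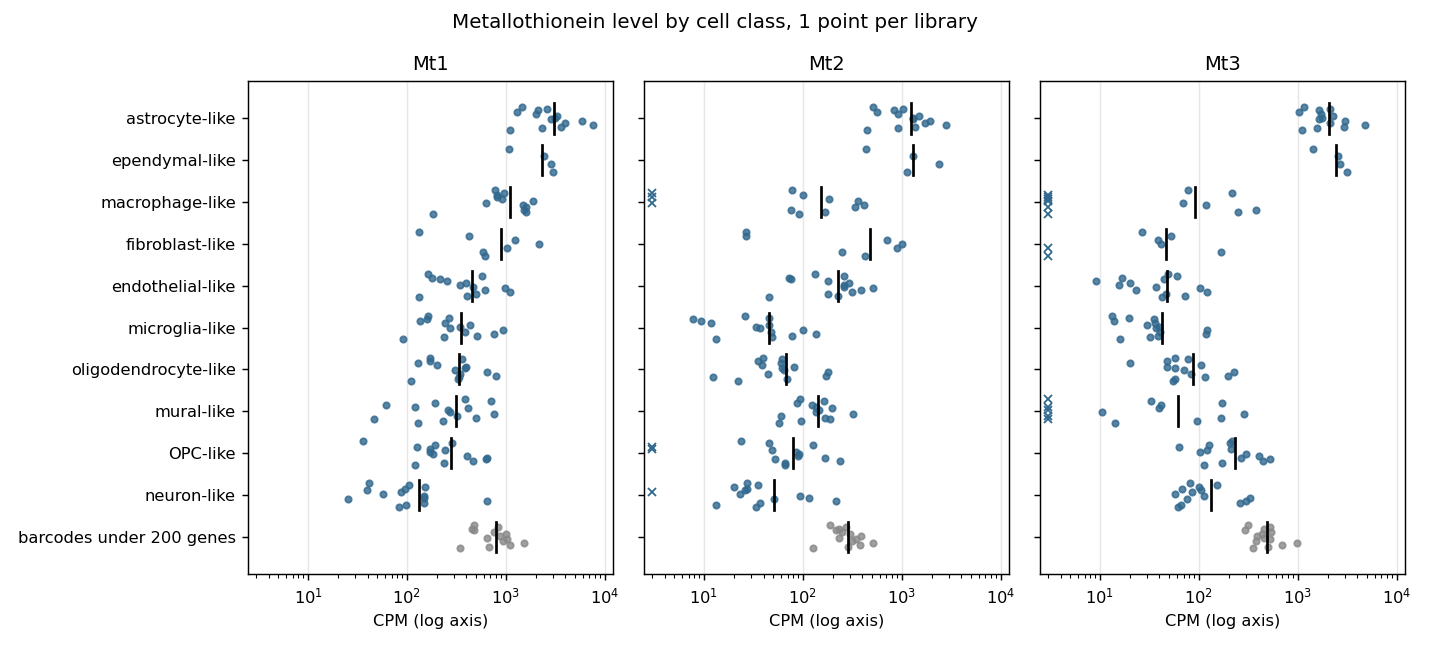
CPM on a log axis for Mt1, Mt2 and Mt3 in each cell class, with 1 point per library holding at least 10 cells of the class, a black bar at the mean and a cross at the left edge for a library at 0. Astrocyte-like and ependymal-like cells lie highest for the 3 genes, and the grey points at the bottom, barcodes under 200 genes, lie above most other classes.

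Within the astrocyte-like class, 4 clusters of the finer clustering were compared. A cluster with higher Gfap (433 CPM) and Myoc (757 CPM) than the other 3 had a mean of 2387 CPM for Mt1, 1243 for Mt2 and 1963 for Mt3 over 12 libraries. The largest cluster, of 2775 cells, had a mean of 2409 CPM for Mt1 in the same 12 libraries, and the Gfap-high cluster was above it in 6 of 12. For Mt2 the largest cluster had a mean of 995 CPM there, with the Gfap-high cluster above it in 7 of 12. For Mt3 it had 1720 CPM, with the Gfap-high cluster above it in 9 of 12. The Gfap-high cluster also carried the collagen gene Col1a2 at 478 CPM, against 0.692 to 30.0 in the other 3. The next in size, of 1555 cells, had a mean of 3361 CPM for Mt1 over 14 libraries, against 2993 in the largest, and was above it in 13 of 14. The smallest cluster, of 212 cells, had a mean of 1237 CPM for Mt1, 411 for Mt2 and 849 for Mt3. It lay below the largest cluster in 10 of 10 libraries for Mt1 and Mt3 and in 9 of 10 for Mt2. Its cells also carried the microglial genes Cx3cr1 at 3405 CPM and P2ry12 at 941 CPM. The part of such mixed cells in the levels of either cluster was not tested.

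The share of cells with at least 1 molecule was highest in the astrocyte-like and ependymal-like classes. After each cell was thinned to 300 UMIs, 48.7% of 4665 astrocyte-like cells had an Mt1 UMI (95% exact binomial interval 47.3 to 50.1), 25.4% had an Mt2 UMI and 39.0% an Mt3 UMI. Any of the 3 was found in 71.6%. In ependymal-like cells the shares were 38.5% for Mt1, 20.5% for Mt2 and 41.8% for Mt3. In microglia-like cells, taken as a class that should lack Mt3, the share was 1.03% for Mt3 (interval 0.801 to 1.30), with 1.09% for Mt2 and 7.62% for Mt1. Neuron-like cells had 2.78% for Mt1, 1.60% for Mt2 and 2.95% for Mt3. Without thinning the astrocyte-like shares were 66.8% for Mt1, 41.5% for Mt2 and 59.0% for Mt3 at a median of 555 UMIs per cell, and the microglia-like shares were 14.4%, 2.40% and 2.08% at a median of 504. Intervals cover counting error only.

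The make-up of the metallothionein molecules differed between classes. UMIs are counted at the 3′ end, so counts of the members can be set side by side without their length. In astrocyte-like cells, 48.5% of the 18799 UMIs of the 3 genes were Mt1, 19.03% Mt2 and 32.5% Mt3. In barcodes under 200 genes the make-up was 50.7%, 18.3% and 31.0%, close to that of astrocyte-like cells. In microglia-like cells it was 79.8%, 10.7% and 9.56%, and the Mt1 share was above that of the same library's barcodes under 200 genes in 14 of 14 libraries, with the Mt2 and Mt3 shares below it in 14 of 14. In endothelial-like cells it was 61.2%, 31.6% and 7.22%, with the Mt2 share above and the Mt3 share below that of the barcodes in 14 of 14 libraries. The part of RNA from outside the cells in these make-ups was not tested.

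**Figure D2:**
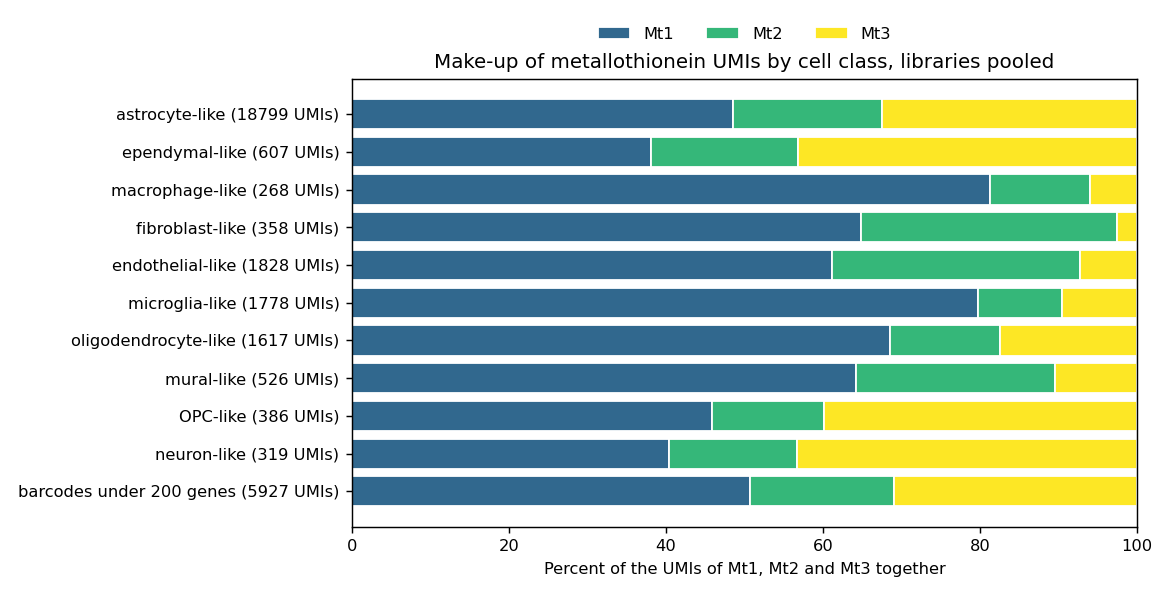
Percent of the UMIs of Mt1, Mt2 and Mt3 together that each gene gave, by cell class, with the 14 libraries pooled and the UMI total beside each class. Mt3 gives 32.5% in the astrocyte-like and 7.22% in the endothelial-like class, and Mt1 gives 79.8% in the microglia-like class.

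The genotype comparison asks whether metallothionein levels differ with the tau transgene in each sex. Over all kept cells, Mt1 stood at 351 to 542 CPM in the 3 WT males and at 750 to 1621 CPM in the 3 THY-Tau22 males, so the male groups did not overlap, as for 22.4% of all genes tested. The fitted log2 fold change was 1.08 ± 0.40 (SE) in males, with an adjusted p of 0.266 by edgeR's quasi-likelihood test, Benjamini-Hochberg adjusted over 11643 genes. In females it was -0.50 ± 0.35, with an edgeR adjusted p of 1.00. Mt2 had a log2 fold change of 1.01 ± 0.37 in males and -0.45 ± 0.32 in females, and Mt3 of 0.40 ± 0.36 and -0.41 ± 0.32, none of them called. A gene was called where the log2 fold change was 0.5 or more in either direction with an adjusted p under 0.05, and 0% of all genes were called in all cells in either sex, with 9.04% higher in males at an unadjusted p under 0.05. In sums over all cells, a change in the share of cells of a type and a change in RNA per cell cannot be told apart. Astrocyte-like cells made up 19.6% ± 0.90 of the cells in WT males and 16.4% ± 1.23 in THY-Tau22 males. The part of the cell shares in the sums over all cells was not tested.

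In astrocyte-like cells Mt1, Mt2 and Mt3 were each higher in every THY-Tau22 male than in every WT male, and none passed the test across all genes. Mt1 was at 1454, 2108 and 1285 CPM in WT male replicates 1, 2 and 4, and at 3254, 3150 and 5839 CPM in THY-Tau22 male replicates 1, 2 and 3. The lowest THY-Tau22 male lay above the highest WT male, and the ratio of the means was 2.53. Mt2 was at 509, 827 and 560 CPM in these WT males and at 1507, 1306 and 1936 CPM in these THY-Tau22 males, a ratio of 2.51. Mt3 was at 1155, 1628 and 1030 CPM in the WT males and at 2268, 1745 and 3026 CPM in the THY-Tau22 males, a ratio of 1.85. The margin between the groups was narrowest for Mt3. Of the 4103 genes tested in this class, 22.1% were likewise higher in every THY-Tau22 male than in every WT male.

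The log2 fold change in males was 1.07 ± 0.35 for Mt1, 1.07 ± 0.33 for Mt2 and 0.62 ± 0.31 for Mt3, with edgeR adjusted p of 0.152, 0.152 and 0.295. No gene was called in astrocyte-like cells of males (0% of 4103), with unadjusted edgeR p of 0.00427 for Mt1, 0.00236 for Mt2 and 0.0555 for Mt3, and 9.68% of all genes were higher at an unadjusted p under 0.05. The exact two-sided permutation test over the 3 and 3 libraries gave p = 0.1 for each member, the smallest it can give. By DESeq2 the adjusted p was 0.0910 for Mt1 and Mt2. Of the 3 genes, Mt1 and Mt2 were called in males without the 2 libraries titled MB22, which are both female, at 1.08 (edgeR adjusted p = 0.0170) and 1.07 (edgeR adjusted p = 0.0115), beside 2.44% of all genes called in that setting. The MB22 libraries alone hold 1 female of each genotype and allow no fit.

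In females the groups overlapped. Mt1 was at 3970, 7648 and 1091 CPM in WT female replicates 1, 2 and 3, and at 2628, 2023, 2876, 3600 and 2337 CPM in THY-Tau22 female replicates 1 to 5. WT female replicate 2 was the highest and WT female replicate 3 the lowest of the 14 libraries, so all 5 THY-Tau22 females lay between them. Mt2 was at 1723, 2812 and 449 CPM in the WT females and at 1031, 917, 1311, 1351 and 911 CPM in the THY-Tau22 females. Mt3 was at 2125, 4761 and 1109 CPM in the WT females and at 2113, 1724, 1647, 2929 and 1569 CPM in the THY-Tau22 females, with the same libraries at both ends of the female range. The log2 fold changes were -0.52 ± 0.31 for Mt1, -0.46 ± 0.28 for Mt2 and -0.31 ± 0.27 for Mt3, all with an edgeR adjusted p of 1.00 and with 0% of all genes called. Their sign rested on WT female replicate 2, since without it the values were 0.13, 0.092 and 0.30.

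The male minus female difference of the log2 fold changes was 1.59 ± 0.46 for Mt1, 1.53 ± 0.43 for Mt2 and 0.93 ± 0.41 for Mt3 in astrocyte-like cells. None was called (edgeR adjusted p of 0.133, 0.133 and 0.245), as for all other genes tested (0%). The exact permutation test of the difference over 1120 splits gave p = 0.075 for Mt1, 0.058 for Mt2 and 0.107 for Mt3, not adjusted for the members and classes examined. Without the 2 MB22 libraries the differences were 1.99, 1.90 and 1.19, with edgeR adjusted p of 0.000606, 0.000526 and 0.0297, where 10.6% of all genes were called. Without WT female replicate 3 alone they were 2.00, 1.93 and 1.22, with edgeR adjusted p of 0.000265, 0.000214 and 0.0171, where 15.1% of all genes were called. Without WT female replicate 2 they were 0.95, 0.99 and 0.33, with edgeR adjusted p of 0.595, 0.595 and 0.841. The size of the differences thus moved with the WT females at both ends of the range. Mitochondrially encoded mRNAs took 1.65% of the astrocyte-like UMIs in WT female replicate 2 and 0.625% in WT female replicate 3, and their part was not tested.

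**Figure D3:**
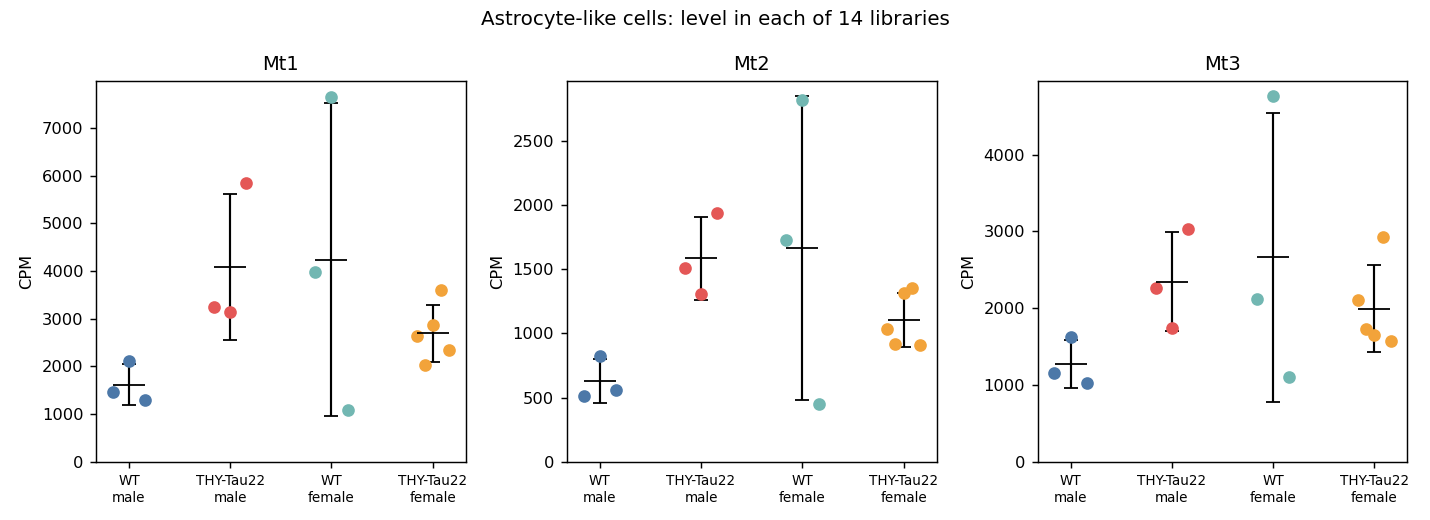
CPM of Mt1, Mt2 and Mt3 in astrocyte-like cells in each of the 14 libraries by group, with the horizontal bar at the mean and whiskers of 1 SD. The male groups do not overlap, while the WT females span 1091 to 7648 CPM for Mt1 and hold the THY-Tau22 females between them.

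Shares of astrocyte-like cells with a molecule pointed the same way as the levels. After thinning to 300 UMIs, Mt1 was found in 34.9% ± 7.34 of cells in WT males and 63.2% ± 11.1 in THY-Tau22 males, with no overlap (exact permutation p = 0.1, n = 3 and 3). Mt2 was found in 16.5% ± 3.57 and 32.2% ± 4.07 (exact permutation p = 0.1). Mt3 was found in 31.1% ± 6.88 and 44.4% ± 5.86, with overlap (exact permutation p = 0.2). In females the Mt1 share was 57.1% ± 29.0 in WT and 51.4% ± 5.71 in THY-Tau22 mice, which overlapped (exact permutation p = 0.643). Mt2 was found in 36.3% ± 22.5 and 26.0% ± 3.10 (exact permutation p = 0.339), and Mt3 in 47.6% ± 22.2 and 41.5% ± 8.98 (exact permutation p = 0.643).

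Outside astrocyte-like cells, Mt1 in microglia-like cells of males was the only value of a member that was called. Mt1 was at 164, 160 and 135 CPM in WT male replicates 1, 2 and 4, from 75, 41 and 29 UMIs. It was at 439, 341 and 931 CPM in THY-Tau22 male replicates 1, 2 and 3, from 116, 111 and 285 UMIs. Every THY-Tau22 male lay above every WT male, the ratio of the means was 3.73, and 15.9% of the 5111 genes tested showed the same separation. The log2 fold change was 1.79 ± 0.42 with an edgeR adjusted p of 0.0427, where 0.783% of all genes were called and 10.5% were higher at an unadjusted p under 0.05, and the exact permutation p was 0.1. With DESeq2 the value was 1.79 with an adjusted p of 0.0514. Without THY-Tau22 male replicate 3 it was 1.27 (edgeR adjusted p = 0.323), and the call was also lost without any 1 of WT male replicates 1, 2 and 4, THY-Tau22 male replicate 1 and THY-Tau22 female replicates 2 and 3. With all 16 tables as labelled it was 1.32 (edgeR adjusted p = 0.234). In THY-Tau22 male replicate 3, 1 cell held 11 of the 285 UMIs (3.86%). This library stood apart from the other THY-Tau22 males. It held 258 microglia-like cells with a median of 1044.5 UMIs, against medians of 490 and 479.5 in replicates 1 and 2, and its mitochondrial mRNA took 1.55% of all UMIs, against 1.10% and 1.08%. It gave 44.5% of the 874 cells of the larger unnamed cluster, counted over all 16 tables. The part of these measures in its Mt1 level was not tested.

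In females Mt1 in microglia-like cells was at 391, 761 and 92.0 CPM in WT replicates 1, 2 and 3. It was at 268, 244, 275, 510 and 235 CPM in THY-Tau22 replicates 1 to 5, inside the WT range. The log2 fold change was -0.38 ± 0.36 (edgeR adjusted p = 1.00, with 0% of all genes called), and the male minus female difference was 2.17 ± 0.55 (edgeR adjusted p = 0.139, with 0% called). Mt2 and Mt3 were low in microglia-like cells, with 2 to 12 UMIs of Mt2 and 3 to 9 of Mt3 in each WT male. Their log2 fold changes in males were 1.74 ± 0.62 and 1.58 ± 0.57, neither called (edgeR adjusted p = 0.153 and 0.155).

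The level in barcodes outside the kept cells moved in the same direction. In barcodes under 200 genes Mt1 was at 473, 457 and 481 CPM in WT male replicates 1, 2 and 4 and at 1000, 880 and 1017 CPM in THY-Tau22 male replicates 1, 2 and 3, with no overlap. The share of all genes separated in this way in these barcodes was not computed. To set the level of the barcodes against the microglia-like level, the Mt1 expected at the background ratio of Mt1 to Mt3 was taken from the Mt3 counts of microglia-like cells, a measure chosen after the values were seen. It came to 11.9% to 26.4% of their Mt1 UMIs in the 14 libraries. The measure takes all Mt3 of these cells as background and rests on 3 to 9 Mt3 UMIs in each WT male. It therefore cannot tell RNA from outside the cells from their own. The remaining Mt1 was 127 CPM ± 16.3 in WT males and 439 CPM ± 230 in THY-Tau22 males, with ranges of 112 to 145 and 251 to 696 (n = 3 and 3). The summed level of the 12 astrocyte markers in microglia-like cells was 845 to 938 CPM in WT males and 764 to 1434 CPM in THY-Tau22 males. Of these 12 markers, 1 was higher in every THY-Tau22 male than in every WT male, beside 15.9% of the 5111 genes tested. A higher mean in THY-Tau22 males was seen for 11, and the share of all genes with one was not computed. None of the markers was at 0. The part of astrocyte transcripts in the Mt1 difference was not tested.

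Mt1 was also higher in every THY-Tau22 male than in every WT male in the oligodendrocyte-like and endothelial-like classes, and was not called in either. In oligodendrocyte-like cells Mt1 was at 170, 171 and 128 CPM in WT male replicates 1, 2 and 4 and at 400, 384 and 646 CPM in THY-Tau22 male replicates 1, 2 and 3. The groups did not overlap, as for 21.5% of the 4380 genes tested, and the log2 fold change was 1.37 ± 0.36 (edgeR adjusted p = 0.0790, with 0.0685% of all genes called). At the background ratio, 25.8% to 50.5% of these Mt1 UMIs were expected in WT males and 27.1% to 68.7% in THY-Tau22 males. The share of 68.7% was that of THY-Tau22 male replicate 3, where 202 CPM remained. The remaining Mt1 was 100.7 CPM ± 20.1 in WT males and 249.1 CPM ± 45.0 in THY-Tau22 males, without overlap. In endothelial-like cells Mt1 was at 162, 178 and 217 CPM in the WT males and at 396, 340 and 979 CPM in the THY-Tau22 males. Mt1 expected at the background ratio was 9.30% to 45.1% of these Mt1 UMIs in WT males and 10.3% to 20.3% in THY-Tau22 males. The remaining Mt1 ranged from 88.8 to 162 CPM and from 306 to 781 CPM. The part of RNA from outside the cells was not tested in either class. Mt2, which gave 31.6% of the family's UMIs in this class, was at 132, 72.5 and 76.4 CPM in the WT males and at 296, 258 and 517 CPM in the THY-Tau22 males. Neither pair of groups overlapped, as for 16.6% of the 3743 genes tested. The male log2 fold changes in this class were 1.46 ± 0.44 for Mt1 and 1.67 ± 0.43 for Mt2 (edgeR adjusted p = 0.321 and 0.203, with 0% called), and that of Mt3 was 0.01 ± 0.69.

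**Figure D4:**
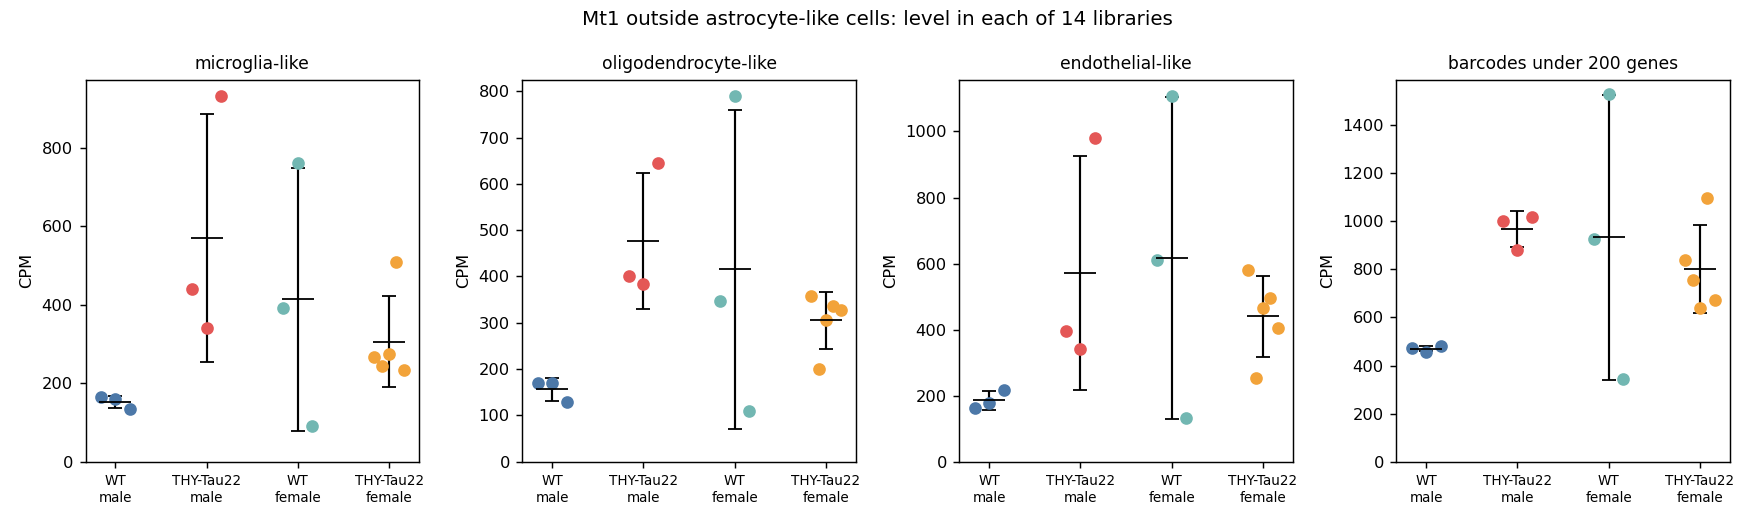
CPM of Mt1 in microglia-like, oligodendrocyte-like and endothelial-like cells and in barcodes under 200 genes, for each of the 14 libraries by group, with the mean and whiskers of 1 SD. In the 4 panels the 3 THY-Tau22 males lie above the 3 WT males, and the WT females span the widest range. For the barcodes, the share of all genes separated in this way was not computed.

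In neuron-like cells, in which the transgene is driven, Mt1 had a log2 fold change of 0.02 ± 0.64 in males and Mt3 one of 0.83 ± 0.55, with 1 to 31 UMIs of either gene per library (edgeR adjusted p = 0.998 and 0.787, with 0% called). The male groups overlapped for the 3 genes, where 8.49% of the genes tested were higher in every THY-Tau22 male. At this depth, with a 95% interval of -1.29 to 1.33 for Mt1, a difference of the size seen in astrocyte-like cells was not detectable. In OPC-like cells Mt1 had a log2 fold change of 1.08 ± 0.57 in males (edgeR adjusted p = 0.540, with 0.0787% called), and the groups overlapped, where 12% of the genes tested were higher in every THY-Tau22 male. Mt2 was too low to be tested in either class.

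Over the 7 levels fitted (all cells and 6 classes), 19 tests of a member were made in each sex. In males 19 of 19 log2 fold changes were above 0, from 0.01 to 1.79, and 12 had an unadjusted edgeR p under 0.05. Higher in males at that level were 9.04% of all genes in all cells, 9.68% in astrocyte-like, 10.5% in microglia-like, 9.54% in oligodendrocyte-like, 6.97% in endothelial-like, 4.96% in OPC-like and 4.17% in neuron-like cells. In females 16 of 19 were below 0, from -0.83 to 0.08, and 0 had an unadjusted edgeR p under 0.05, beside 1.74%, 2.92%, 2.8%, 2.95%, 2.27%, 3.46% and 3.09% of all genes in either direction in the same order of levels. The male minus female difference was above 0 in 19 of 19, with 14 at an unadjusted edgeR p under 0.05 and 0 called. Positive at that level were 8.34%, 10.9%, 8.63%, 10%, 7.08%, 3.78% and 3.09% of all genes in that order, and genes called made up 0.365% in the oligodendrocyte-like class and 0% in the other 6 levels. These tests are not independent, since the classes share the libraries and all of them enter the sums over all cells.

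**Figure D5:**
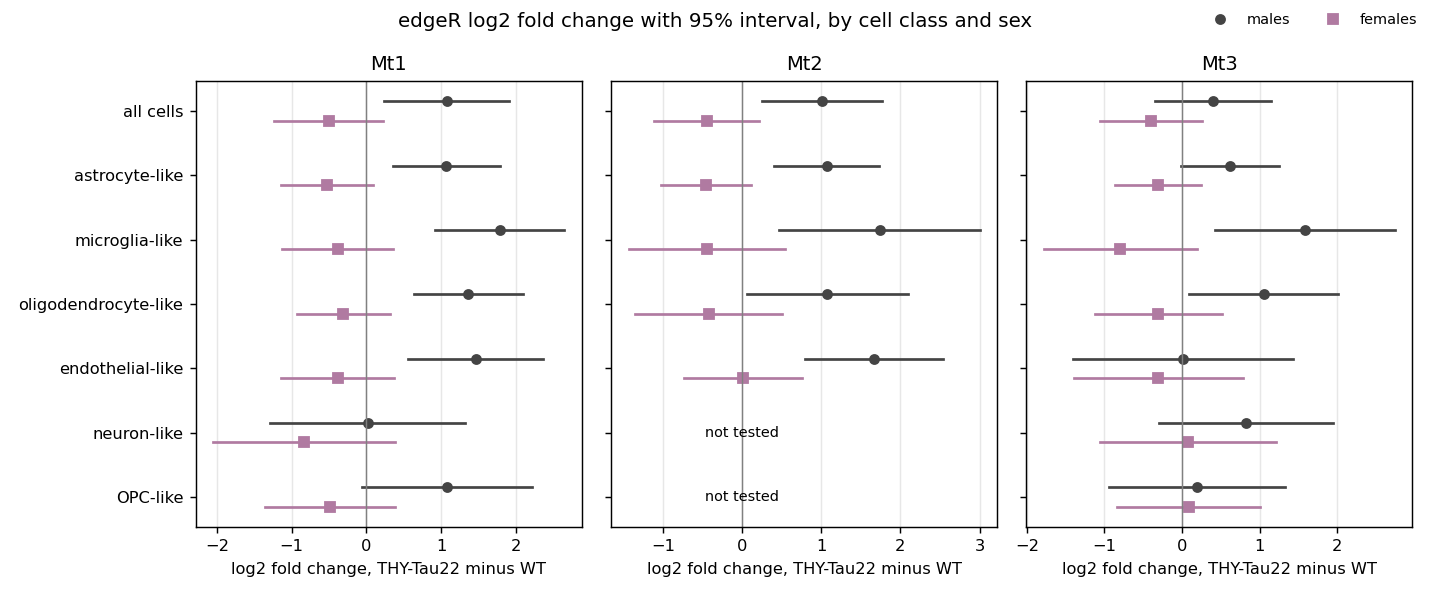
edgeR log2 fold change of THY-Tau22 against WT with its 95% interval for Mt1, Mt2 and Mt3 over all cells and in 6 classes, circles for males and squares for females, with an own x axis in each panel. The male values lie at or above 0, and the intervals of the females include 0 throughout.

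Some measures of the libraries moved with the male comparison of Mt1, Mt2 and Mt3 and with the male minus female difference. Mitochondrially encoded mRNAs took 0.656% ± 0.15 of the UMIs of astrocyte-like cells in WT males and 1.40% ± 0.24 in THY-Tau22 males, and 0.461% ± 0.09 and 1.02% ± 0.15 in microglia-like cells. The summed level of 12 glucocorticoid-responsive genes was 943 CPM ± 76.2 in astrocyte-like cells of WT males and 1168 CPM ± 42.9 in THY-Tau22 males. A sum of 11 genes that respond to dissociation was 23017 CPM ± 1100 and 27504 CPM ± 1203 in microglia-like cells. The male groups did not overlap in these 4 comparisons (exact permutation p = 0.1, n = 3 and 3). The dissociation sum overlapped in astrocyte-like cells, at 1278 CPM ± 621 and 1693 CPM ± 356 (exact permutation p = 0.4, n = 3 and 3), and its mean in oligodendrocyte-like cells was 3419 CPM in WT and 3342 CPM in THY-Tau22 males. In endothelial-like cells it was 13789 CPM ± 2038 and 19508 CPM ± 984, without overlap. The glucocorticoid sum in oligodendrocyte-like cells was 883 CPM ± 34.4 in WT and 1242 CPM ± 154 in THY-Tau22 males, also without overlap. The male minus female difference was 0.940 percentage points for mitochondrial mRNA in astrocyte-like cells (exact permutation p = 0.0321 over 1120 splits) and 10828 CPM for the dissociation sum in microglia-like cells (exact permutation p = 0.00804), both unadjusted. Median UMIs per astrocyte-like cell overlapped, at 546 ± 55.0 and 593 ± 177. The part of these measures in the metallothionein differences was not tested.

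The 3 members varied together between libraries. In astrocyte-like cells Mt1 and Mt2 had a Pearson r of 0.983 and a Spearman rho of 0.974 on the log2 CPM scale over 14 libraries, with permutation p of 1e-05 each, the smallest that 100000 resamples can give (2e-05 adjusted over 6 relations). Without WT female replicates 2 and 3, the libraries farthest from the median, r was 0.968, and after centring each group it was 0.975. Mt1 and Mt3 had r = 0.945 and rho = 0.934, with r = 0.911 without those libraries, and Mt2 and Mt3 had r = 0.917 and rho = 0.934, with r = 0.868 (permutation p of 1e-05 and 2e-05, adjusted 2e-05 and 3e-05, for r). The order of the libraries was thus close between the 3 genes, and closest between Mt1 and Mt2. Mt1 in astrocyte-like cells and Mt1 in microglia-like cells of the same library had r = 0.961 and rho = 0.960, with r = 0.947 without the same 2 libraries (permutation p = 1e-05, adjusted 2e-05). Mt2 had r = 0.792 and Mt3 r = 0.854 between these classes (adjusted permutation p = 0.00086 and 0.000192). Cells of 1 library share its preparation.

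The genes most like each member were named by Pearson correlation on the log2(CPM + 10) scale, as a description with no test. Over the 84 pairs of a library and 1 of 6 classes, with 6618 genes ranked, Mt1 was most like Mt2 (r = 0.867), then Gstm1 (0.844), a glutathione transferase, the neurotensin receptor Ntsr2 (0.832), Aldoc (0.822) and the membrane linker Ezr (0.820). Mt2 was most like Mt1, then Ezr (0.845), Fam107a (0.840), Gja1 (0.833) and the microsomal glutathione transferase Mgst1 (0.833). Mt3 was most like Slc1a2 (0.935), Clu (0.935), Aldoc (0.925), the sodium pump subunit Atp1b2 (0.921) and the chemokine Cxcl14 (0.920), with Mt1 at rank 243 and Mt2 at rank 265. Among the genes most like Mt1, Mt3 was at rank 97, and among those most like Mt2 at rank 94. Aldoc, Slc1a2, Gja1 and Ntsr2 are among the markers that named the astrocyte-like class.

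Between the 14 libraries in astrocyte-like cells, with 4103 genes ranked, Mt1 was most like Mt2 (r = 0.983), the protease inhibitor Cst3 (0.977), the cytochrome c oxidase subunits Cox5a (0.977) and Cox7a2 (0.973), and the tetraspanin Cd81 (0.976). Mt2 was most like Mt1, Cd81 (0.975), the peroxiredoxin Prdx1 (0.971), Lcat (0.967) and Cox5a (0.963). Mt3 was most like Tm2d3 (0.971), Chchd10 (0.967), Gm14303 (0.962), Gstm1 (0.951) and D8Ertd738e (0.951), with Mt1 at rank 9 and Mt2 at rank 24. Among the genes most like Mt1, Mt3 was at rank 24, and among those most like Mt2 at rank 60. The points share depth and preparation within a library. In males, the log2 fold change was 1.14 ± 0.33 for Cd81, 1.06 ± 0.32 for Prdx1 and 0.91 ± 0.34 for Cst3, and none was called (edgeR adjusted p of 0.152, 0.152 and 0.183).

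Genes of zinc and copper handling, 32 in all, did not pass the test in either sex. Over all cells 28 were tested and 0 were called in either sex by edgeR or DESeq2, with 5 higher and 0 lower in males at an unadjusted p under 0.05, beside 9.04% of all genes higher, and 0 in females, and the median log2 fold change in males was 0.01 beside 0.01 over all genes. In astrocyte-like cells 10 were tested and 0 were called, with 1 higher in males at an unadjusted p under 0.05, the copper chaperone Atox1 (1.07 ± 0.44, edgeR adjusted p = 0.208), beside 9.68% of all genes. Their median log2 fold change there was 0.17 in males and -0.25 in females, beside 0.0005 and -0.01 over all genes tested. The astrocyte-like level was highest of the 6 classes for the manganese exporter Slc30a10 (92.6 CPM) and the zinc importer Slc39a12 (185 CPM). These had log2 fold changes of -0.42 ± 0.35 and 0.44 ± 0.35 in males. Mtf1, the regulator of Mt1 and Mt2, was highest in oligodendrocyte-like cells at 85.8 CPM and stood at 22.3 CPM in astrocyte-like cells. The zinc importer Slc39a10 (1017 CPM) and the exporter Slc30a1 (194 CPM) were highest in endothelial-like cells, and the synaptic vesicle zinc transporter Slc30a3 in neuron-like cells (37.0 CPM). Without WT female replicate 3, 6 calls were made in the list for the male minus female difference over the 7 levels, where 0.118% to 15.1% of all genes were called by level.

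Of the 12 glucocorticoid-responsive genes, 1 was called, Cdkn1a in oligodendrocyte-like cells with both sexes averaged. Cdkn1a, an inhibitor of cell cycle kinases, was at 6.07, 0 and 0 CPM in the WT males and at 23.7, 37.1 and 49.4 CPM in the THY-Tau22 males. It was at 5.53, 5.48 and 3.64 CPM in the WT females and at 29.5, 16.6, 47.1, 73.4 and 31.6 CPM in the THY-Tau22 females. Every THY-Tau22 library lay above every WT library, at low levels, and the share of all genes separated in this way was not computed. The log2 fold change was 3.09 ± 0.57 (edgeR adjusted p = 0.0168, with 0.0228% of all genes called). With DESeq2 no gene of the list was called with both sexes, and with edgeR the call was lost, or the gene fell under the filter on low counts, when any of 8 of the 14 libraries was left out. Among the 11 genes of the dissociation list 0 were called by edgeR in males and 1 by DESeq2, the immediate early gene Ier2 in microglia-like cells, where DESeq2 called 1.86% of all genes. Over all cells 2 of the 11 were higher in males at an unadjusted p under 0.05, beside 9.04% of all genes, and 1 was lower in females, beside 1.74% of all genes in either direction. The metallothioneins were members of neither list.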

How the data were processed

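Freshly dissected cortex was profiled by Drop-seq on an Illumina NextSeq, and the submitters' processing notes name the build mm10. The aligner settings and the use of strand were not given in the sources used here. The deposited tables hold UMI counts per gene and barcode, made by the authors from barcodes and molecular identifiers, 3000 barcodes per table and not normalized. Cells with 200 to 7000 detected genes were kept. Clustering in scanpy 1.11.5 used 2500 variable genes without Mt1, Mt2 and Mt3, 19 principal components and Leiden resolution 0.5, and clusters with at least 3 detected markers were named. Scrublet marked 5.16% of cells as doublets, which were kept. Counts were summed per library and class with at least 10 cells and fitted across all genes in edgeR 4.0.16 (TMM, filterByExpr, 4 group means, quasi-likelihood F-test, Benjamini-Hochberg), and single values were tested by exact two-sided permutation of log2(CPM + 10) over libraries. DESeq2 1.42.0 was an alternative. Shares were thinned to 300 UMIs per cell. Named genes were the members, the 5 genes most correlated with each at a mean of at least 50 CPM, and the list genes the text counts. The fits were tested on simulated data. The members, lists and tests were chosen with earlier results of these data known. Replicates were taken as separate mice, from the animal numbers in the titles, of which 1 occurs on 2 libraries.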

Additional observations from a re-analysis of the deposited data

Results flagged for a closer look

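Mt1 in microglia-like cells of THY-Tau22 female replicate 4 stood at 510 CPM, with the nearest of the other 4 THY-Tau22 females at 275 CPM. The gap was 0.853 of the range of the group, past the limit of Dixon's test, among 21 groups examined, of which chance alone marks about 1 in 20.

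The share of astrocyte-like cells with an Mt2 UMI differed in its genotype difference between the sexes by 26.0 percentage points, higher in THY-Tau22 males and lower in THY-Tau22 females (exact permutation p = 0.0277 over 1120 splits, unadjusted for the 12 such tests of shares). The level of Mt2 in the same cells gave p = 0.058 in the exact permutation test.

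Barcodes with under 200 genes, which enter no comparison of cells, held Mt1 at a level that was 1.02 higher in THY-Tau22 than in WT males on the log2(CPM + 10) scale, and Mt2 at one that was 0.67 higher. The 3 libraries of each group did not overlap for either gene (exact permutation p = 0.1, the smallest that 3 against 3 can give). The share of all genes separated in this way in these barcodes was not computed. Mt3 differed by 0.34 there and its groups overlapped (exact permutation p = 0.3).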

How the results depend on the processing

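Of 1103 recomputed values, 988 kept their direction, their side of the threshold and, for counts and levels, about their size. 40 gained a call, 11 lost one, 57 moved and 7 changed sign. No paired analysis was possible because replicate numbers follow the order of the samples and pair no mice. Low numbers of molecules limit Mt2 and Mt3 outside astrocyte-like cells, and 3 against 3 libraries limit the permutation tests to p = 0.1. The cause of the changes listed here was not tested, unless fewer libraries, cells or genes enter by construction.

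With no filter on low counts, log2 fold changes that gained a call were 1.07 and 1.00 for Mt1 and Mt2 in males over all cells, 1.52 and 1.40 for their male minus female differences, 1.11 and 1.10 in males in astrocyte-like cells, 1.61 and 1.54 for the differences there, and 1.95 for that of Mt1 in microglia-like cells. The calls of members then numbered 8 in males and 6 for the difference, beside 0% to 1.03% and 0% to 0.632% of all genes by level. List genes called were 1 of zinc and copper handling in females, 1 glucocorticoid-responsive gene in males and 2 with both sexes, and 3 of dissociation in males and 2 for the difference.

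Without the 2 MB22 libraries, calls were gained in astrocyte-like cells by Mt1 and Mt2 in males (1.08 and 1.07) and by the differences of Mt1, Mt2 and Mt3 (1.99, 1.90 and 1.19), over all cells by those of Mt1 and Mt2 (1.98 and 1.85), and in microglia-like cells by that of Mt1 (2.53). Members had 6 calls in males and 12 for the difference, beside 0% to 2.95% and 0.123% to 10.6% of all genes by level, zinc and copper genes 4 for the difference, glucocorticoid-responsive genes 1 in males and 0 with both sexes, and dissociation genes 2 in males and 6 for the difference.

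Mt1 in microglia-like cells of males lost its call with DESeq2 (1.79), with all 16 tables (1.32), with the shared library as THY-Tau22 (1.56) and with at least 500 genes per cell (1.65), and members then had 0 calls in males under the last 3. DESeq2 gave 1 call of a dissociation gene in males and 1 for the difference. Cdkn1a lost its call, leaving 0, with DESeq2, all 16 tables and the shared library as THY-Tau22, and it was under the filter on low counts and not tested with at least 500 genes or doublets removed. Shares of astrocyte-like cells were 66.8% for Mt1, 41.5% for Mt2 and 59.0% for Mt3 without thinning and 36.9%, 18.5% and 29.8% at 200 UMIs.

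Leaving out 1 library at a time, members had 0 to 6 calls in males and 0 to 12 for the difference, the most without WT female replicate 3, beside 0% to 3.12% and 0.118% to 15.1% of all genes there by level. Dissociation genes had 0 to 1 in males and 0 to 7 for the difference, glucocorticoid-responsive genes 0 to 1 in males and 0 to 1 with both sexes, and zinc and copper genes 0 to 6 for the difference. The female values of Mt1, Mt2 and Mt3 ran from -0.93 to 0.29, -0.87 to 0.17 and -0.72 to 0.36 over all cells and from -0.93 to 0.13, -0.86 to 0.092 and -0.61 to 0.30 in astrocyte-like cells, and those of Mt1 in microglia-like cells from -0.85 to 0.45, with the sign turned only without WT female replicate 2. The male values ran from 0.74 to 1.26 for Mt1 and 0.91 to 1.27 for Mt2 in astrocyte-like cells, 1.27 to 2.02 for Mt1 in microglia-like, 1.13 to 1.47 for Mt1 in oligodendrocyte-like, and 0.87 to 1.72 for Mt1 and 1.34 to 2.09 for Mt2 in endothelial-like cells. The differences ran from 0.79 to 2.00 for Mt1 and 0.84 to 1.87 for Mt2 over all cells, 0.95 to 2.00, 0.99 to 1.93 and 0.33 to 1.22 for Mt1, Mt2 and Mt3 in astrocyte-like, 1.33 to 2.60 for Mt1 in microglia-like and 0.89 to 2.10 for Mt1 in oligodendrocyte-like cells. The gains came without WT female replicate 3, WT female replicate 2 or THY-Tau22 female replicate 4.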
